A study of Mus musculus with 12 samples.

Results

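The expression of 42 genes of DNA replication and nucleotide synthesis was followed in mouse bone marrow cells that carried MEIS1 constructs. A list of 43 symbols gave the genes, and every array probe set annotated to one of them was taken. All but Chaf1a, which is not used here, matched a probe set, so that 42 genes with 94 probe sets stood among the 45101 probe sets of the Affymetrix array. Of the 94 probe sets, 89 passed the filter on low signal, and each of the 42 genes was represented by its brightest one among the 19990 features tested. The rule itself names genes and uses no measured value, but the genes were chosen with earlier results of these data known.

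All cultures started from marrow of F1 mice of C57Bl/6Ly-Pep3b and C3H/HeJ parents, taken after 5-fluorouracil and transformed by an ND13-GFP or ND13pac retrovirus for NUP98-HOXD13 (ND13). This leukaemia fusion gene, which the vector control carried too, joins a nucleoporin to a homeobox protein. A second retrovirus, introduced on irradiated E86 producer cells, carried MEIS1 in full (MEIS1-WT), a MEIS1 that lacks the homeodomain (MEIS1-deltaHD), M33-MEIS1, which is named after M33, an older name of the Polycomb protein Cbx2, or only the vector for yellow fluorescent protein (MIY-ctrl). Each group had 3 arrays from separate experiments of sorted cells grown with human IL-6 and with the murine factors IL-3 and SCF. All 4 groups shared 4 weeks of liquid culture after the ND13 virus and 2 days on the producer cells for the second one. How the cells were gated, and the time between the second virus and the RNA, the sources used here do not say.

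Replication of the genome needs origins that are bound and licensed in G1, a helicase that is loaded there and switched on in S phase, polymerases with their clamp, and a supply of deoxynucleotides. Many of these genes are transcribed as cells enter S phase, when E2F factors are released from pocket proteins, and their transcript levels follow the share of cycling cells in blood progenitors. Cyclin E with its kinase drives this step, and chromatin factors copy histones and DNA methylation behind the fork.

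Promoter sequence from RefSeq (GRCm38.p6) was at hand for 35 of the 42 genes as windows from 250 bases before to 50 bases after an annotated start. Mcm4, Gmnn, Gins1, Gins2, Prim2, Pole and Ccne2 have no such window here. An E2F element, taken as TTTCCCGC, TTTCGCGC, TTTGCCGC or TTTGGCGC on either strand, stood in a window of 14 of these 35 genes (40%), against 704 of all 27025 genes with a window (2.61%). The 14 were Mcm3, Mcm5, Mcm6, Mcm7, Orc1, Cdc6, Cdt1, Gins3, Rfc3, Pola1, Pold1, Lig1, Uhrf1 and Dnmt1. A CCAAT box was found in 21 of the 35 genes (60%), against 41.1% of all genes. The core motif of MEIS proteins, TGACAG, was found in 5 of the 35 (14.3%), against 21.6% of all genes. These are matches of letters and not mapped binding sites. Whether the E2F element had a part in the levels of these genes was not tested. Upstream stretches are printed for 3 genes, a helicase subunit, a helicase activator and a clamp loader subunit. These had a single window with a match in its stretch, and the stretch did not fall inside another transcript of the gene. Each stretch covers the 200 bases just before the annotated start, 5′ to 3′ on the gene's strand, with E2F elements of either strand in capitals.
Mcm6 (chr1:128359706-128359905, minus strand): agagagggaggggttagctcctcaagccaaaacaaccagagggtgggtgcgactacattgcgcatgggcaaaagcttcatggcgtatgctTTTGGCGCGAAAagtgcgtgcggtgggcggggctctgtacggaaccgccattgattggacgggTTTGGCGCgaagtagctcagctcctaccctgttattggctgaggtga
Gins3 (chr8:95633359-95633558, plus strand): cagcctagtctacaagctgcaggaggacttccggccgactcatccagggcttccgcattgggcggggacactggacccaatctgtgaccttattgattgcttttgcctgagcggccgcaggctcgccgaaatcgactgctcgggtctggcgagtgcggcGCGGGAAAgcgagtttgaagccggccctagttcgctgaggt
Rfc3 (chr5:151651209-151651408, minus strand): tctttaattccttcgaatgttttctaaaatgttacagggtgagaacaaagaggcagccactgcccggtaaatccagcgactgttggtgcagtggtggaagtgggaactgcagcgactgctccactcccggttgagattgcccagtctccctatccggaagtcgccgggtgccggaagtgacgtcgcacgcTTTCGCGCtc
The first run of capitals before Mcm6 holds an element on each strand, overlapping.

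The arrays had median signals of 13.1 to 21.6 at a common trimmed mean of 100, with the 3 vector arrays highest. Arrays of 1 group correlated at 0.982 to 0.989 across features. The groups are named by their labels. The Meis1 probe set used read 129 to 148 in MEIS1-WT cells, 100.1 to 120.0 in MEIS1-deltaHD cells and 104 to 133 in M33-MEIS1 cells, against 168 to 205 in MIY-ctrl cells, and since the sources used here do not say which part of Meis1 it matches, it does not check the labels. A Cbx2 probe set that was not used for the gene read 40.9 to 59.8 on the M33-MEIS1 arrays and at most 14.7 elsewhere. The Cbx2 probe set used showed no such rise. It read 52.7 to 72.9 in M33-MEIS1 cells, 56.5 to 70.7 in MEIS1-WT cells, 43.7 to 64.8 in MEIS1-deltaHD cells and 63.6 to 103.7 in MIY-ctrl cells. Blood and progenitor markers (Ptprc, Kit, Cd34, Mpo, Spi1, Myb) were above the 40th percentile on every array, whereas 0 of 9 fibroblast markers on the array and 0 of 5 B and T cell markers were. Some of these passed it on part of the arrays, at most 8 (Col1a2, Fn1 and Cd8a). The fibroblast markers summed to 90.8 to 107.8 on the MIY-ctrl arrays. With MEIS1-WT the sum was 45.9 to 87.4, with MEIS1-deltaHD 53.5 to 80.7 and with M33-MEIS1 50.8 to 80.6. The 40th percentile itself was 11.1 to 14.8 on the MIY-ctrl arrays and 8.21 to 10.5 on the construct arrays. Of the 5 fibroblast markers tested, 0 passed against MIY-ctrl with any construct in limma's test.

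Against MIY-ctrl, the replication and nucleotide genes were higher as a block with each construct. In MEIS1-WT cells, 41 of 42 passed as higher at an adjusted p below 0.05, where 13.4% of all features did. In MEIS1-deltaHD cells, 42 of 42 passed as higher, where 13.8% of all features did. In M33-MEIS1 cells, 40 of 42 passed as higher, where 12.4% of all features did. No member passed as lower in limma's test, and none had a log2 difference below 0, also before adjustment, while 19.5%, 22.8% and 18.3% of all features were lower in the MEIS1-WT, MEIS1-deltaHD and M33-MEIS1 comparisons. Differences are given as log2(signal + 16) of a construct minus MIY-ctrl, with p-values from limma adjusted over the 19990 features by Benjamini-Hochberg. The median log2 difference of the members was 0.86 in MEIS1-WT cells, 0.80 in MEIS1-deltaHD cells and 0.78 in M33-MEIS1 cells, beside -0.12, -0.17 and -0.13 over all features. All 3 arrays lay above all 3 vector arrays for 41 members in MEIS1-WT cells and for 41 in MEIS1-deltaHD cells (16.5% of all features in each), and for 40 in M33-MEIS1 cells (14.7%). No member had all 3 arrays of a construct below all vector arrays, as 26.5% of features did for MEIS1-WT, 31.7% for MEIS1-deltaHD and 25.3% for M33-MEIS1. In all 3 comparisons together 40 members passed as higher, as did 9.59% of features, and 39 had all construct arrays above all vector arrays, as did 10.8%. The 3 comparisons share the vector arrays. In bulk RNA, fewer cells of a type and less RNA per cell cannot be told apart. Scaling the arrays to a common median moved the median of all features up by 0.19 in MEIS1-WT cells, 0.25 in MEIS1-deltaHD cells and 0.19 in M33-MEIS1 cells, and put those of the members at 1.05, 1.06 and 0.97, with every member still above 0.

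**Figure D1:**
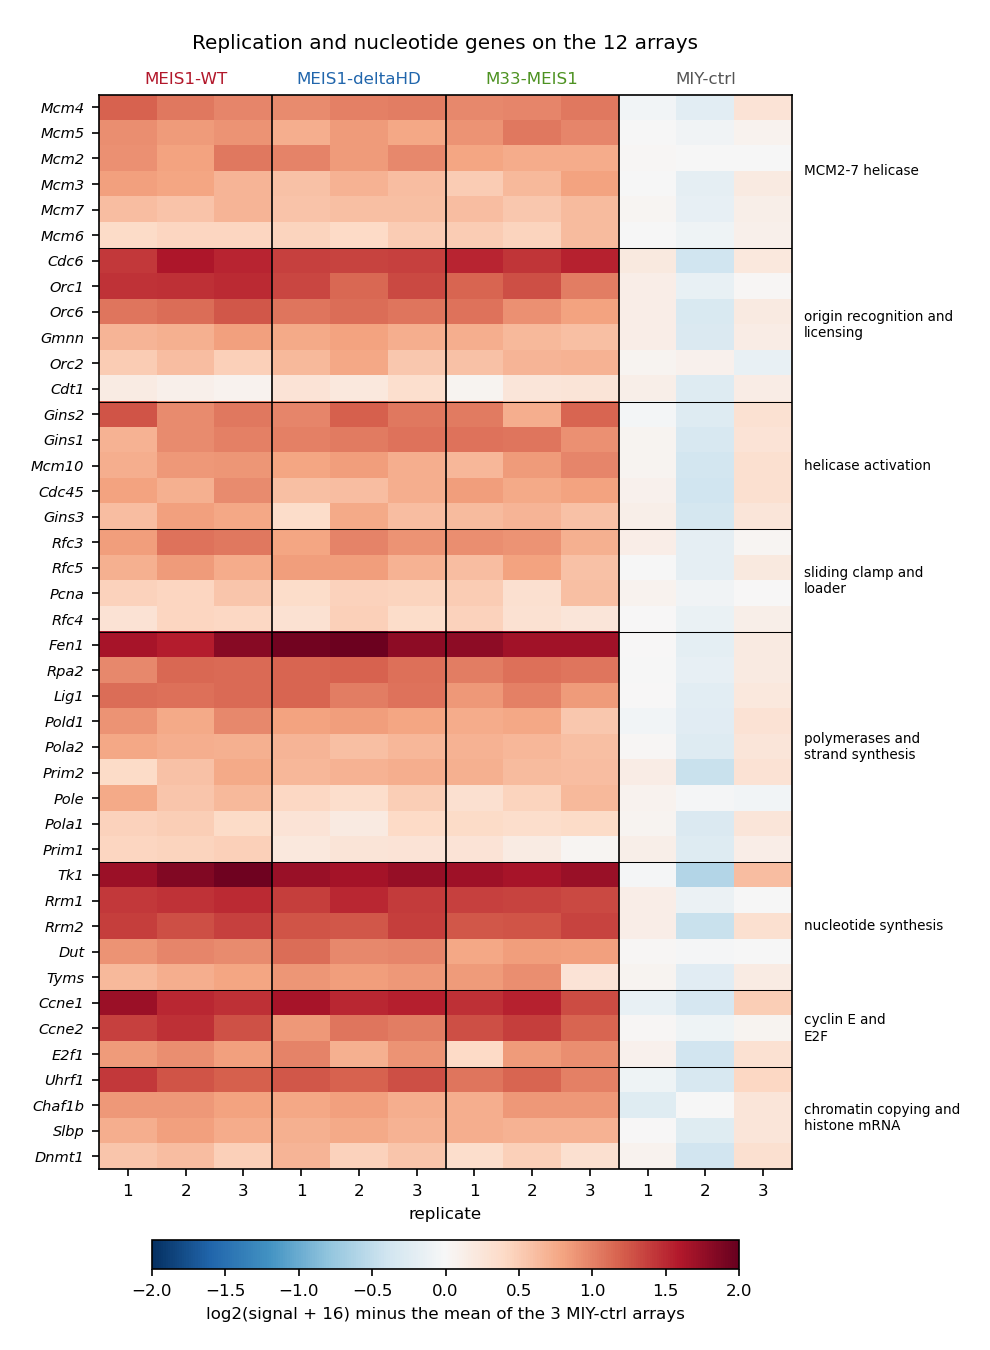
Heat map of the 42 genes (rows, ordered by role) on the 12 arrays (columns). Colour gives log2(signal + 16) minus the mean of the 3 MIY-ctrl arrays; the construct arrays are red throughout nearly all rows, palest for Cdt1, and replicate 2 of MIY-ctrl is the bluest column.

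The genes of the MCM ring (Mcm2 to Mcm7), which unwinds DNA at the fork, were all higher with each construct, with median log2 differences of 0.83 in MEIS1-WT cells, 0.71 in MEIS1-deltaHD cells and 0.71 in M33-MEIS1 cells. Mcm4, a subunit of the ring's catalytic core, had linear signals of 1471, 1353 and 1279 in MEIS1-WT cells, 1251, 1305 and 1326 in MEIS1-deltaHD cells and 1269, 1279.99 and 1358 in M33-MEIS1 cells, against 614, 551 and 781 in MIY-ctrl cells. Every construct array lay above every vector array, by roughly the same step in each group. Its log2 difference from MIY-ctrl was 1.07 in MEIS1-WT cells (adjusted p = 2.15e-09), 0.99 in MEIS1-deltaHD cells (adjusted p = 8.86e-09) and 1.00 in M33-MEIS1 cells (adjusted p = 1.11e-08), each with an SE of 0.09. Mcm5, which borders the gate through which DNA enters the ring, read 2573, 2441 and 2535 in MEIS1-WT cells, 2250.2, 2447 and 2323 in MEIS1-deltaHD cells and 2519.9, 2809 and 2671 in M33-MEIS1 cells, against 1347, 1279.98 and 1423 in MIY-ctrl cells. Here too the groups with a construct did not overlap MIY-ctrl, and the difference was 0.89 in MEIS1-WT cells (adjusted p = 3.71e-10), 0.79 in MEIS1-deltaHD cells (adjusted p = 3.72e-09) and 0.97 in M33-MEIS1 cells (adjusted p = 1.57e-10), each with an SE of 0.07. The other subunits followed: Mcm2 differed by 0.92 (MEIS1-WT), 0.93 (MEIS1-deltaHD) and 0.76 (M33-MEIS1), Mcm3 by 0.76 (MEIS1-WT), 0.63 (MEIS1-deltaHD) and 0.65 (M33-MEIS1) and Mcm7 by 0.62 (MEIS1-WT), 0.59 (MEIS1-deltaHD) and 0.60 (M33-MEIS1). Mcm6 had the smallest step of the ring, 0.41 (MEIS1-WT), 0.45 (MEIS1-deltaHD) and 0.52 (M33-MEIS1), and still passed in each comparison.

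Among the genes that mark and license origins, Cdc6 and Orc1 were 2.56 to 3.21 times as high in mean signal as in MIY-ctrl, while Cdt1 barely moved. Cdc6, which joins the origin complex to load the helicase, read 407, 469 and 442 in MEIS1-WT cells, 391, 387 and 395 in MEIS1-deltaHD cells and 437, 410.4 and 443 in M33-MEIS1 cells, against 165, 104 and 167 in MIY-ctrl cells. The vector arrays stood far below all others. Its log2 difference was 1.52 in MEIS1-WT cells (adjusted p = 2.22e-10), 1.36 in MEIS1-deltaHD cells (adjusted p = 1.8e-09) and 1.49 in M33-MEIS1 cells (adjusted p = 5.61e-10), each with an SE of 0.12. Orc1, the origin subunit whose level swings with the cell cycle in mammals, read 194, 195 and 199 in MEIS1-WT cells, 177, 155 and 176 in MEIS1-deltaHD cells and 156, 172 and 140.5 in M33-MEIS1 cells, against 67.8, 53.5 and 62.0 in MIY-ctrl cells. The groups did not overlap MIY-ctrl, and the difference was 1.46 in MEIS1-WT cells (adjusted p = 1.32e-10), 1.27 in MEIS1-deltaHD cells (adjusted p = 1.87e-09) and 1.16 in M33-MEIS1 cells (adjusted p = 1.18e-08), each with an SE of 0.11. Orc6, another subunit of the complex, rose by 1.14 (MEIS1-WT), 1.09 (MEIS1-deltaHD) and 0.94 (M33-MEIS1), and Orc2 by 0.54 (MEIS1-WT), 0.66 (MEIS1-deltaHD) and 0.65 (M33-MEIS1). Geminin (Gmnn), the protein that binds Cdt1 and blocks a second licensing, rose by 0.74 (MEIS1-WT), 0.77 (MEIS1-deltaHD) and 0.66 (M33-MEIS1).

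Cdt1, the partner of Cdc6 in helicase loading, had the smallest mean difference of all 42 genes. It read 1573, 1502 and 1481 in MEIS1-WT cells, 1699, 1626 and 1776 in MEIS1-deltaHD cells and 1457, 1672 and 1680.1 in M33-MEIS1 cells, against 1522, 1177 and 1553 in MIY-ctrl cells. Replicate 2 of MIY-ctrl stood apart below the other vector arrays, which lay within the range of the MEIS1-WT and M33-MEIS1 arrays. Its log2 difference was 0.11 in MEIS1-WT cells (adjusted p = 0.383), 0.27 in MEIS1-deltaHD cells (adjusted p = 0.0195) and 0.18 in M33-MEIS1 cells (adjusted p = 0.126), each with an SE of 0.09, so that it passed in MEIS1-deltaHD cells alone. Under median scaling it passed in MEIS1-WT cells (0.30, adjusted p = 0.0336) and in M33-MEIS1 cells (0.37, adjusted p = 0.00981) as well, and the MEIS1-deltaHD call was lost under quantile normalization (0.15, adjusted p = 0.210) and without the intensity trend (adjusted p = 0.0947). Without replicate 2 of MIY-ctrl the difference in MEIS1-WT cells was -0.02 (adjusted p = 0.908) and that in MEIS1-deltaHD cells 0.14 (adjusted p = 0.178), and without replicate 3 of MEIS1-deltaHD the call was lost too, at 0.24 (adjusted p = 0.0777). Without replicate 3 of MIY-ctrl the difference in M33-MEIS1 cells passed, at 0.25 (adjusted p = 0.0431).

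The factors that switch the loaded helicase on (Gins1, Gins2, Gins3, Cdc45 and Mcm10) all rose with each construct, with medians of 0.83 in MEIS1-WT cells, 0.78 in MEIS1-deltaHD cells and 0.83 in M33-MEIS1 cells. Gins2, part of the GINS complex that holds the active helicase together, read 339, 270.4 and 293 in MEIS1-WT cells, 275, 324 and 293 in MEIS1-deltaHD cells and 289, 228 and 315 in M33-MEIS1 cells, against 128, 107 and 167 in MIY-ctrl cells. The construct groups overlapped one another but not MIY-ctrl. Its difference was 1.09 in MEIS1-WT cells (adjusted p = 3.01e-07), 1.08 in MEIS1-deltaHD cells (adjusted p = 3.71e-07) and 0.97 in M33-MEIS1 cells (adjusted p = 2.23e-06), each with an SE of 0.13. Gins1, of the same complex, read 369, 441 and 466 in MEIS1-WT cells, 465, 476 and 492 in MEIS1-deltaHD cells and 491, 486 and 432 in M33-MEIS1 cells, against 231, 174 and 272 in MIY-ctrl cells. The lowest construct array lay above the highest vector array, and the difference was 0.88 in MEIS1-WT cells (adjusted p = 1.26e-06), 1.05 in MEIS1-deltaHD cells (adjusted p = 9.43e-08) and 1.02 in M33-MEIS1 cells (adjusted p = 1.95e-07), each with an SE of 0.11. Mcm10, which acts in helicase activation, rose by 0.83 (MEIS1-WT), 0.78 (MEIS1-deltaHD) and 0.83 (M33-MEIS1), and Cdc45, the third part of the active helicase, by 0.82 (MEIS1-WT), 0.65 (MEIS1-deltaHD) and 0.80 (M33-MEIS1). Averaged over all kept probe sets of a gene, Mcm10 differed by 0.26 in MEIS1-WT cells (adjusted p = 0.0843) and 0.26 in MEIS1-deltaHD cells (adjusted p = 0.0691), and Cdc45 by 0.27 in MEIS1-deltaHD cells (adjusted p = 0.0989) and 0.33 in M33-MEIS1 cells (adjusted p = 0.0504), so that these 4 calls were lost. Gins3 was among the dimmest members, at a mean signal of 76.5 ± 6.85 in MEIS1-WT cells, 67.3 ± 11.1 in MEIS1-deltaHD cells and 69.8 ± 2.49 in M33-MEIS1 cells, against 40.2 ± 11.5 in MIY-ctrl cells (SD, n = 3 each), and rose by 0.74 (MEIS1-WT), 0.58 (MEIS1-deltaHD) and 0.63 (M33-MEIS1).

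Steps were smaller for the sliding clamp and its loader than for the other roles, with medians of 0.63 in MEIS1-WT cells, 0.61 in MEIS1-deltaHD cells and 0.57 in M33-MEIS1 cells. Rfc3, a small subunit of the clamp loader, read 306, 366 and 357 in MEIS1-WT cells, 296, 344 and 318 in MEIS1-deltaHD cells and 328, 320.5 and 279.6 in M33-MEIS1 cells, against 182, 143 and 169 in MIY-ctrl cells. No construct array reached down to the vector arrays. Its difference was 0.99 in MEIS1-WT cells (adjusted p = 2.91e-08), 0.89 in MEIS1-deltaHD cells (adjusted p = 1.59e-07) and 0.85 in M33-MEIS1 cells (adjusted p = 4.94e-07), each with an SE of 0.10. Rfc5, another small loader subunit, read 622, 691 and 639.8 in MEIS1-WT cells, 682, 681 and 615 in MEIS1-deltaHD cells and 582, 665 and 569.9 in M33-MEIS1 cells, against 371, 327 and 431 in MIY-ctrl cells. The groups were again separate from MIY-ctrl, with a difference of 0.77 in MEIS1-WT cells (adjusted p = 3.81e-07), 0.79 in MEIS1-deltaHD cells (adjusted p = 2.78e-07) and 0.67 in M33-MEIS1 cells (adjusted p = 4.26e-06), each with an SE of 0.09. Pcna, the clamp that holds the polymerases on DNA, rose by 0.49 (MEIS1-WT), 0.42 (MEIS1-deltaHD) and 0.48 (M33-MEIS1), and Rfc4 by 0.38 (MEIS1-WT), 0.38 (MEIS1-deltaHD) and 0.33 (M33-MEIS1). Whether the roles differed was not tested.

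Of the 9 genes for polymerases and strand joining, all were higher in MEIS1-WT cells and in MEIS1-deltaHD cells, and 8 in M33-MEIS1 cells. Fen1, the nuclease that trims the flaps of lagging-strand fragments, read 1426, 1349.6 and 1622 in MEIS1-WT cells, 1738, 1789 and 1571 in MEIS1-deltaHD cells and 1583, 1458 and 1458 in M33-MEIS1 cells, against 447, 389 and 508 in MIY-ctrl cells. Its mean signal was 3.27 times that of MIY-ctrl in MEIS1-WT cells, 3.79 times in MEIS1-deltaHD cells and 3.35 times in M33-MEIS1 cells, and no construct group overlapped MIY-ctrl. The log2 difference was 1.68 in MEIS1-WT cells (adjusted p = 3.58e-13), 1.89 in MEIS1-deltaHD cells (adjusted p = 6.39e-14) and 1.71 in M33-MEIS1 cells (adjusted p = 6.02e-13), each with an SE of 0.09. Rpa2, part of the protein that coats single-stranded DNA, read 583, 669 and 659 in MEIS1-WT cells, 674, 683 and 649 in MEIS1-deltaHD cells and 609.7, 647 and 633 in M33-MEIS1 cells, against 291, 259 and 333 in MIY-ctrl cells. Its difference was 1.08 in MEIS1-WT cells (adjusted p = 5.32e-10), 1.15 in MEIS1-deltaHD cells (adjusted p = 2.26e-10) and 1.06 in M33-MEIS1 cells (adjusted p = 1.19e-09), each with an SE of 0.09, again with no overlap with the vector arrays. Lig1, the ligase that seals the fragments, rose by 1.11 (MEIS1-WT), 1.09 (MEIS1-deltaHD) and 0.91 (M33-MEIS1).

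Replicative polymerases had smaller steps than Fen1 and Lig1. The catalytic subunits of polymerases delta and epsilon, Pold1 and Pole, rose by 0.87 (MEIS1-WT), 0.81 (MEIS1-deltaHD) and 0.68 (M33-MEIS1) and by 0.65 (MEIS1-WT), 0.42 (MEIS1-deltaHD) and 0.47 (M33-MEIS1). In the polymerase alpha and primase complex, which lays down primers, Pola2 rose by 0.74 (MEIS1-WT), 0.65 (MEIS1-deltaHD) and 0.65 (M33-MEIS1) and Prim2 by 0.57 (MEIS1-WT), 0.70 (MEIS1-deltaHD) and 0.66 (M33-MEIS1). With all kept probe sets averaged, Prim2 did not pass in MEIS1-WT cells (0.15, adjusted p = 0.448) or in M33-MEIS1 cells (0.21, adjusted p = 0.267), nor Pola2 in M33-MEIS1 cells (0.29, adjusted p = 0.164). Pola1, its catalytic subunit, rose by 0.45 (MEIS1-WT), 0.29 (MEIS1-deltaHD) and 0.37 (M33-MEIS1), with arrays of MEIS1-deltaHD that overlapped MIY-ctrl. That call was lost under quantile normalization (0.25, adjusted p = 0.0717), with only the compared groups in the fit (adjusted p = 0.0598) and without the intensity trend (adjusted p = 0.0982). It was also lost when replicate 2 of MIY-ctrl (0.15, adjusted p = 0.241), replicate 1 (0.29, adjusted p = 0.0645) or replicate 3 (0.23, adjusted p = 0.131) of MEIS1-deltaHD was left out, and the call in M33-MEIS1 cells without replicate 2 of MIY-ctrl (0.23, adjusted p = 0.0637).

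Prim1, the primase itself, had the second smallest mean difference of the 42. It read 1029, 1044 and 1065 in MEIS1-WT cells, 888, 916 and 926 in MEIS1-deltaHD cells and 924, 859.8 and 785 in M33-MEIS1 cells, against 831, 639 and 839 in MIY-ctrl cells. The MEIS1-WT arrays were the highest, the MEIS1-deltaHD arrays lay just above MIY-ctrl, and the M33-MEIS1 arrays overlapped it. Its difference was 0.45 in MEIS1-WT cells (adjusted p = 0.000335), 0.25 in MEIS1-deltaHD cells (adjusted p = 0.032) and 0.16 in M33-MEIS1 cells (adjusted p = 0.195), each with an SE of 0.09, which passed in MEIS1-WT cells and in MEIS1-deltaHD cells. The MEIS1-deltaHD call was lost under quantile normalization (0.12, adjusted p = 0.341), without the filter (adjusted p = 0.0506), with only the compared groups in the fit (adjusted p = 0.0506), without the intensity trend (adjusted p = 0.115) and with all kept probe sets averaged (0.27, adjusted p = 0.122), and under median scaling the gene passed in M33-MEIS1 cells too (0.34, adjusted p = 0.0212). Nor did that call survive the loss of replicate 2 of MIY-ctrl (0.12, adjusted p = 0.260) or of any replicate of MEIS1-deltaHD (0.24 to 0.27, adjusted p = 0.0542 to 0.0855).

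Nucleotide synthesis had medians of 1.34 in MEIS1-WT cells, 1.30 in MEIS1-deltaHD cells and 1.28 in M33-MEIS1 cells over 5 genes, all of which passed in each comparison. Tk1, the thymidine kinase of S phase, read 569.6, 630.00 and 671 in MEIS1-WT cells, 575, 550.1 and 584 in MEIS1-deltaHD cells and 561, 546 and 577 in M33-MEIS1 cells, against 160.2, 103 and 257 in MIY-ctrl cells. The vector arrays were low and differed from each other more than the construct arrays did. The log2 difference was 1.84 in MEIS1-WT cells (adjusted p = 3.28e-09), 1.71 in MEIS1-deltaHD cells (adjusted p = 1.25e-08) and 1.69 in M33-MEIS1 cells (adjusted p = 2.22e-08), each with an SE of 0.16. Rrm1, the large subunit of the ribonucleotide reductase that makes deoxynucleotides, read 1949, 2005 and 2062 in MEIS1-WT cells, 1906, 2080.01 and 1934 in MEIS1-deltaHD cells and 1897, 1882 and 1827 in M33-MEIS1 cells, against 791, 665 and 720.2 in MIY-ctrl cells. The construct arrays lay close together and far above the vector arrays. Its difference was 1.45 in MEIS1-WT cells (adjusted p = 1.11e-13), 1.43 in MEIS1-deltaHD cells (adjusted p = 2.21e-13) and 1.35 in M33-MEIS1 cells (adjusted p = 1.07e-12), each with an SE of 0.07. Rrm2, the small subunit made in S phase, rose by 1.34 (MEIS1-WT), 1.30 (MEIS1-deltaHD) and 1.28 (M33-MEIS1), and Dut, which keeps uracil out of DNA, by 0.94 (MEIS1-WT), 1.02 (MEIS1-deltaHD) and 0.81 (M33-MEIS1). Tyms, the thymidylate synthase, was dim, at a mean signal of 55.7 ± 3.33 in MEIS1-WT cells, 63.2 ± 1.46 in MEIS1-deltaHD cells and 55.4 ± 16.5 in M33-MEIS1 cells, against 27.9 ± 5.98 in MIY-ctrl cells (SD, n = 3 each), and rose by 0.72 (MEIS1-WT), 0.86 (MEIS1-deltaHD) and 0.68 (M33-MEIS1).

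Both E cyclins, the partners of the kinase that starts S phase, rose with each construct, and with E2f1 they had medians of 1.37 in MEIS1-WT cells, 0.99 in MEIS1-deltaHD cells and 1.28 in M33-MEIS1 cells. Ccne1 read 227, 196 and 189 in MEIS1-WT cells, 218, 197 and 203 in MEIS1-deltaHD cells and 190.03, 200.01 and 168 in M33-MEIS1 cells, against 51.0, 43.0 and 89.2 in MIY-ctrl cells. Replicate 3 of MIY-ctrl was the highest vector array and still lay below every construct array. The difference was 1.55 in MEIS1-WT cells (adjusted p = 8.88e-09), 1.57 in MEIS1-deltaHD cells (adjusted p = 8.65e-09) and 1.43 in M33-MEIS1 cells (adjusted p = 5.37e-08), each with an SE of 0.15. Ccne2 read 274, 293 and 253 in MEIS1-WT cells, 188, 219.7 and 211 in MEIS1-deltaHD cells and 256, 276 and 235 in M33-MEIS1 cells, against 98.0, 89.8 and 100.3 in MIY-ctrl cells. Its vector arrays were close together, and the MEIS1-deltaHD arrays stood between them and the other construct arrays. The difference was 1.37 in MEIS1-WT cells (adjusted p = 7.52e-11), 0.99 in MEIS1-deltaHD cells (adjusted p = 2.22e-08) and 1.28 in M33-MEIS1 cells (adjusted p = 4.67e-10), each with an SE of 0.10. E2f1, a transcription factor that turns on S phase genes, rose by 0.87 (MEIS1-WT), 0.87 (MEIS1-deltaHD) and 0.73 (M33-MEIS1), and did not pass in M33-MEIS1 cells with all kept probe sets averaged (0.34, adjusted p = 0.0925).

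**Figure D2:**
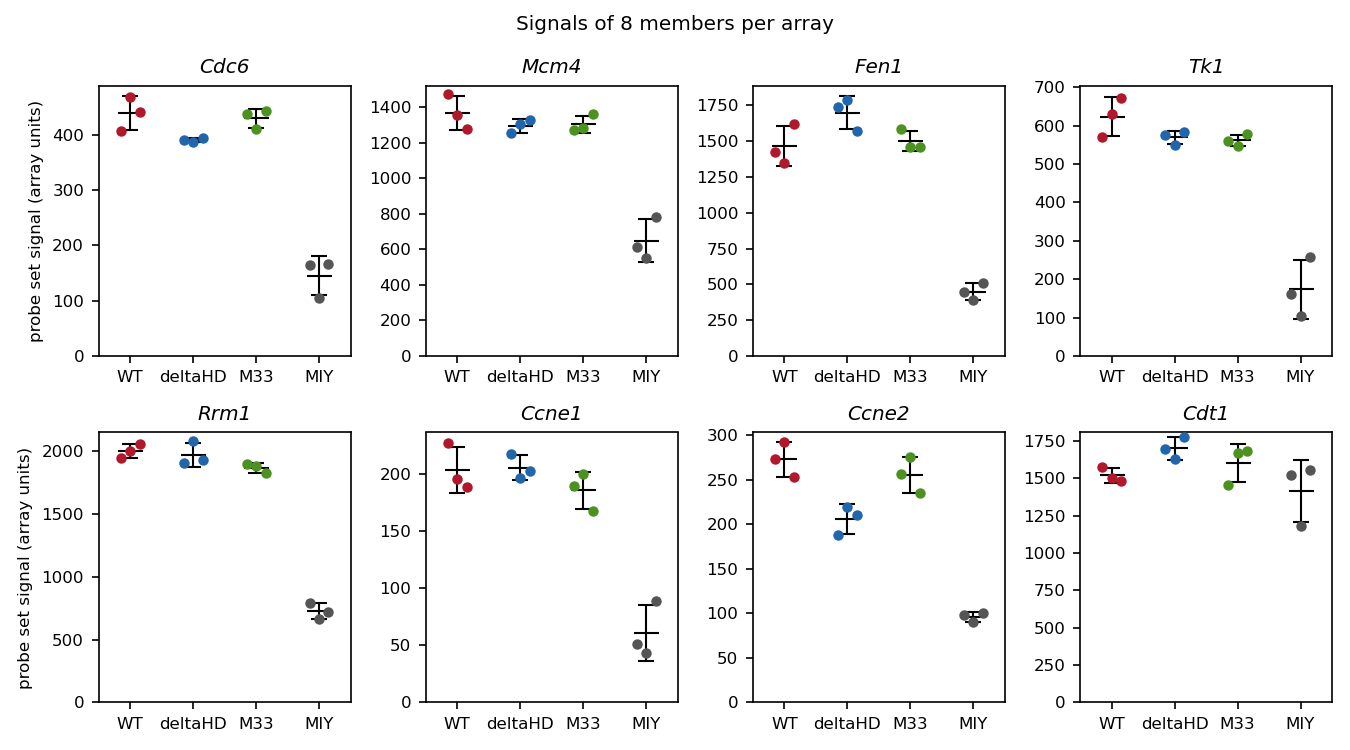
Probe set signal (linear, array units, each panel with its own scale from 0) of Cdc6, Mcm4, Fen1, Tk1, Rrm1, Ccne1, Ccne2 and Cdt1 on each of the 12 arrays. Points are arrays, horizontal lines group means and bars SD (n = 3); WT, deltaHD, M33 and MIY stand for MEIS1-WT, MEIS1-deltaHD, M33-MEIS1 and MIY-ctrl, and construct arrays overlap MIY-ctrl only for Cdt1.

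The genes that copy chromatin behind the fork also rose in each comparison. Uhrf1, which brings the methyltransferase to newly copied DNA, read 875, 787 and 750.5 in MEIS1-WT cells, 781, 741 and 807 in MEIS1-deltaHD cells and 688, 732 and 656 in M33-MEIS1 cells, against 299, 252 and 431 in MIY-ctrl cells. The vector arrays were spread but separate from the rest. Its difference was 1.29 in MEIS1-WT cells (adjusted p = 6e-09), 1.24 in MEIS1-deltaHD cells (adjusted p = 1.33e-08) and 1.08 in M33-MEIS1 cells (adjusted p = 1.73e-07), each with an SE of 0.12. Chaf1b, a subunit of the factor that deposits histones on new DNA, read 326, 326 and 313 in MEIS1-WT cells, 306, 315 and 296 in MEIS1-deltaHD cells and 296, 329 and 328 in M33-MEIS1 cells, against 144, 172 and 206 in MIY-ctrl cells. The difference was 0.84 in MEIS1-WT cells (adjusted p = 3.49e-07), 0.77 in MEIS1-deltaHD cells (adjusted p = 1.27e-06) and 0.83 in M33-MEIS1 cells (adjusted p = 6.87e-07), each with an SE of 0.10, with no overlap. With all kept probe sets averaged it did not pass in MEIS1-deltaHD cells (0.27, adjusted p = 0.0731) or in M33-MEIS1 cells (0.22, adjusted p = 0.163). Slbp, which binds the ends of histone mRNAs, rose by 0.76 (MEIS1-WT), 0.72 (MEIS1-deltaHD) and 0.71 (M33-MEIS1). Dnmt1, the maintenance methyltransferase, rose by 0.55 (MEIS1-WT), 0.56 (MEIS1-deltaHD) and 0.38 (M33-MEIS1), and its call in M33-MEIS1 cells was lost without replicate 2 of MIY-ctrl (0.19, adjusted p = 0.125) or replicate 2 of M33-MEIS1 (0.34, adjusted p = 0.0590). The same call was lost under quantile normalization (0.28, adjusted p = 0.0738), without the intensity trend (adjusted p = 0.0857) and with all kept probe sets averaged (0.23, adjusted p = 0.139).

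The vector arrays differed from each other in these genes more than the construct arrays did. The median coefficient of variation over the 42 members was 5.47% in MEIS1-WT cells, 4.40% in MEIS1-deltaHD cells and 5.81% in M33-MEIS1 cells, against 16.7% in MIY-ctrl cells. Over the 9395 features with a mean signal above 50 it was 7.43%, 6.90% and 8.48% in these construct groups, against 9.003% in MIY-ctrl cells. Of the 3 vector arrays, replicate 2 was the lowest for 39 of the 42 members, as it was for 30.8% of all features, and replicate 3 the highest for 34, as for 28.3% of all features. For each of the 42 members the lowest of all 12 arrays was a vector array. Replicate 2 of MIY-ctrl also had the highest median signal of all arrays, and its part in the result was not tested further than by leaving it out. Without it, 41 members were higher in MEIS1-WT cells, 39 in MEIS1-deltaHD cells and 38 in M33-MEIS1 cells, with medians of 0.70, 0.73 and 0.67 in these groups.

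Few of these genes passed between the constructs, at counts near the small shares of all features. MEIS1-deltaHD against MEIS1-WT gave 0 members higher and 1 lower (2.84% and 2.42% of all features), and 4 members had an unadjusted p below 0.05 in limma's test. M33-MEIS1 against MEIS1-WT gave 0 higher and 0 lower (4.12% and 2.37% of all features), with 4 at an unadjusted p below 0.05. M33-MEIS1 against MEIS1-deltaHD also gave 0 and 0 (0.670% and 0.0400% of all features), with 4 at an unadjusted p below 0.05. The shares in brackets are at the adjusted threshold. The share of all features at the unadjusted one was not counted, so these counts of 4 have no background beside them. All 3 MEIS1-deltaHD arrays lay below the MEIS1-WT arrays for 6 members and above them for 2 (12.5% and 10.5% of all features). M33-MEIS1 arrays lay below the MEIS1-WT arrays for 10 and above for 1 (10.4% and 11.2%), and below the MEIS1-deltaHD arrays for 7 and above for 4 (6.31% and 9.70%). By sign alone, 28 members were below MEIS1-WT in MEIS1-deltaHD cells and 34 in M33-MEIS1 cells, and 27 were below MEIS1-deltaHD in M33-MEIS1 cells, with median log2 differences of -0.04, -0.08 and -0.04 in these 3 comparisons. Over all features 55.2%, 50.2% and 44.6% had a negative sign. Under median scaling the first of these turned, with 15 members below MEIS1-WT in MEIS1-deltaHD cells and a median of 0.02, while 35 and 36 were below in the others. A p that misses the threshold does not show equal levels. Each 95% interval gives a range for a single gene and does not hold jointly for the 42. The intervals rest on a spread pooled over all 4 groups, and the MIY-ctrl arrays varied more in these genes than the construct arrays. For 41 of the 42 members in each of these comparisons the interval lay inside -0.5 to 0.5 on the log2 scale, a count not made over all features. The exceptions were Ccne2 between MEIS1-deltaHD and MEIS1-WT, Orc1 between M33-MEIS1 and MEIS1-WT, down to -0.53, and Tyms between M33-MEIS1 and MEIS1-deltaHD, down to -0.52.

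Ccne2 was the one member that passed between constructs. Its 3 MEIS1-deltaHD arrays all lay below the 3 MEIS1-WT arrays, with a mean of 206 ± 16.5 in MEIS1-deltaHD cells and 273 ± 19.7 in MEIS1-WT cells (SD, n = 3 each). The log2 difference of MEIS1-deltaHD from MEIS1-WT was -0.38 (95% interval -0.58 to -0.18, adjusted p = 0.0185). The call was lost under median scaling (-0.32, adjusted p = 0.138), without the intensity trend (adjusted p = 0.0726), without replicate 1 (-0.38, adjusted p = 0.0639) or replicate 2 (-0.33, adjusted p = 0.115) of MEIS1-WT and without replicate 1 of MEIS1-deltaHD (-0.32, adjusted p = 0.143). Against MEIS1-deltaHD, M33-MEIS1 arrays were all higher in Ccne2, by 0.29 (95% interval 0.09 to 0.49, adjusted p = 0.235). Ccne1 differed between MEIS1-deltaHD and MEIS1-WT by 0.02 (95% interval -0.29 to 0.32, adjusted p = 0.979).

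Prim1 came nearest to the threshold between M33-MEIS1 and MEIS1-WT. All its M33-MEIS1 arrays lay below its MEIS1-WT arrays, with a log2 difference of -0.29 (95% interval -0.47 to -0.10, adjusted p = 0.0557). It passed as lower without replicate 2 (adjusted p = 0.00937) or replicate 3 (adjusted p = 0.0388) of MIY-ctrl, which are in neither group compared, and without replicate 1 of M33-MEIS1 (-0.34, adjusted p = 0.0434). Orc1 had the lowest difference of M33-MEIS1 from MEIS1-WT, -0.30 (adjusted p = 0.112).

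**Figure D3:**
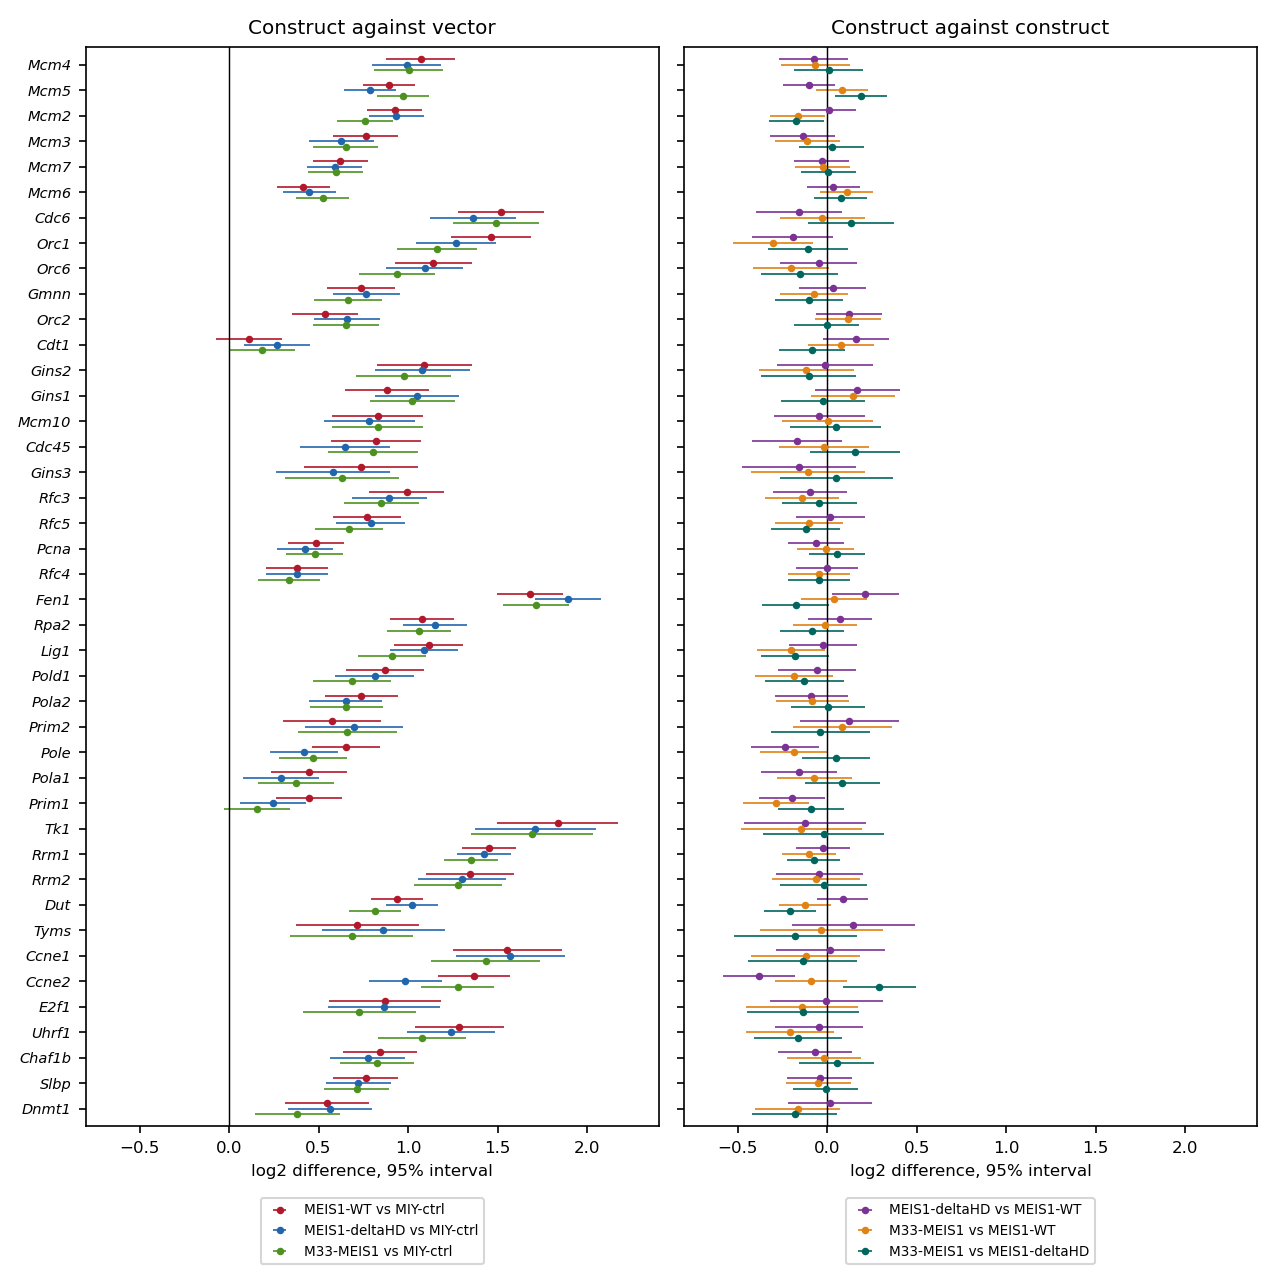
Log2 differences (points) with 95% intervals (lines) of the 42 genes in the 6 comparisons, genes down the page in the order of the heat map. Against MIY-ctrl (left) the points run from 0.11 to 1.89, whereas between constructs (right) they run from -0.38 to 0.29 around 0.

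Markers of monocytes and macrophages moved with the groups, in the other direction. All 10 of the listed markers passed as lower with each construct, with median log2 differences of -3.83 in MEIS1-WT cells, -1.94 in MEIS1-deltaHD cells and -1.51 in M33-MEIS1 cells. The shares of all features that were lower were 19.5%, 22.8% and 18.3%. Under median scaling 9 of the 10 passed in MEIS1-deltaHD cells and 9 in M33-MEIS1 cells. The summed signal of the 10 markers ran from 662 to 801 on the MEIS1-WT arrays, from 2571 to 2798 on the MEIS1-deltaHD arrays and from 4142 to 4579 on the M33-MEIS1 arrays, against 13306 to 15435 on the MIY-ctrl arrays. Ms4a6d lay below the median signal of each array in MEIS1-WT cells, at 8.05 to 14.3, and the lysozyme gene Lyz2 read 101 to 126 there, against 5307 to 5527 in MIY-ctrl cells. Between constructs, 9 of 10 markers passed as higher in MEIS1-deltaHD cells than in MEIS1-WT cells, where 2.84% of all features did. In M33-MEIS1 cells 10 of 10 passed as higher than in MEIS1-WT cells, where 4.12% of all features did. Cd14 overlapped between M33-MEIS1 cells (382 to 461) and MEIS1-deltaHD cells (409 to 434). In the values as deposited, the mean of the replication genes had the order opposite to that of the summed markers, at far smaller steps. Under median scaling this order was not kept. The MEIS1-WT arrays then overlapped both other construct groups, and 27 of the 42 members were above MEIS1-WT in MEIS1-deltaHD cells, with a median difference of 0.02. The order was not tested. The mean log2 value over the 42 genes, relative to the 12-array mean, was 0.24 to 0.28 on the MEIS1-WT arrays, 0.21 to 0.22 on the MEIS1-deltaHD arrays and 0.17 to 0.20 on the M33-MEIS1 arrays, against -0.88 to -0.47 on the MIY-ctrl arrays, and 1 gene (Ccne2) passed between constructs. Erythroid and megakaryocyte markers, of which 4 were on the array, summed to 1382 to 2013 in MEIS1-WT cells, 577 to 782 in MEIS1-deltaHD cells and 1023 to 1431 in M33-MEIS1 cells, against 823 to 1005 in MIY-ctrl cells. Most of these sums came from Pf4, at 1037 to 1624 in MEIS1-WT cells, 335 to 517 in MEIS1-deltaHD cells and 694 to 1083 in M33-MEIS1 cells, against 495 to 557 in MIY-ctrl cells. Itga2b read 331 to 434 in MEIS1-WT cells, against 321 to 440 in MIY-ctrl cells. Klf1 read at most 29.3 and Alas2 at most 1.82 on any array. The part of the cell types behind these marker lists in the result was not tested.

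Other genes of the same pathways, taken from lists, followed the members with smaller steps. Of 40 other replication genes, 33 were higher in MEIS1-WT cells, 32 in MEIS1-deltaHD cells and 29 in M33-MEIS1 cells, and 0 passed as lower in limma's test, with 1 lower at an unadjusted p below 0.05 in each comparison. Of all features, 13.4%, 13.8% and 12.4% passed as higher in these comparisons and 19.5%, 22.8% and 18.3% as lower. The median log2 differences of the 40 genes were 0.52 in MEIS1-WT cells, 0.54 in MEIS1-deltaHD cells and 0.53 in M33-MEIS1 cells. Averaged over the constructs, the steps of 3 genes were the largest. Nasp, a histone chaperone, rose by 1.15 (MEIS1-WT), 1.19 (MEIS1-deltaHD) and 1.03 (M33-MEIS1). Clspn, a checkpoint adaptor at the fork, rose by 1.05 (MEIS1-WT), 0.95 (MEIS1-deltaHD) and 1.01 (M33-MEIS1), and Tipin of the fork protection complex by 0.99 (MEIS1-WT), 0.91 (MEIS1-deltaHD) and 0.92 (M33-MEIS1). Timeless, the partner of Tipin, differed by 0.21 (MEIS1-WT), 0.33 (MEIS1-deltaHD) and 0.08 (M33-MEIS1) and passed only in MEIS1-deltaHD cells. By role, of the 21 fork and synthesis genes, 20 rose in MEIS1-WT cells, 21 in MEIS1-deltaHD cells and 18 in M33-MEIS1 cells, and of the 13 origin and helicase genes, 8, 6 and 7 did in these groups; whether these roles differed was not tested. Orc4, Orc5, Mcm8, Mcm9 and Donson passed in none of the 3 comparisons.

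The wider nucleotide metabolism held genes that were higher and genes that were lower. Of 28 other nucleotide synthesis genes tested, 17 were higher in each comparison, and 7 were lower in MEIS1-WT cells, 5 in MEIS1-deltaHD cells and 6 in M33-MEIS1 cells. The lower ones came to 25%, 17.9% and 21.4% of the list, close to the shares of all features that were lower (19.5%, 22.8% and 18.3%). The shares of all features that were higher were 13.4%, 13.8% and 12.4%. Of 9 purine synthesis genes, 8 rose in MEIS1-WT cells, 7 in MEIS1-deltaHD cells and 7 in M33-MEIS1 cells. Dtymk, which makes TDP from TMP, rose by 1.23 (MEIS1-WT), 1.43 (MEIS1-deltaHD) and 1.23 (M33-MEIS1), and Umps, the last step to UMP, by 0.98 (MEIS1-WT), 1.30 (MEIS1-deltaHD) and 1.14 (M33-MEIS1). Cytosolic Mthfd1 of the folate cycle rose by 1.05 (MEIS1-WT), 1.06 (MEIS1-deltaHD) and 0.96 (M33-MEIS1), whereas its mitochondrial relative Mthfd2 was lower, at -0.62 (MEIS1-WT), -0.54 (MEIS1-deltaHD) and -0.67 (M33-MEIS1). Samhd1, which breaks deoxynucleotides down, had the largest fall of the list, at -1.70 (MEIS1-WT), -1.69 (MEIS1-deltaHD) and -1.55 (M33-MEIS1), with mean signals of 211 in MEIS1-WT cells, 214 in MEIS1-deltaHD cells and 238 in M33-MEIS1 cells, against 725 in MIY-ctrl cells. Rrm2b, the reductase subunit that serves cells outside S phase, was lower too, at -0.73 (MEIS1-WT), -0.93 (MEIS1-deltaHD) and -0.73 (M33-MEIS1), in contrast to Rrm1 and Rrm2.

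**Figure D4:**
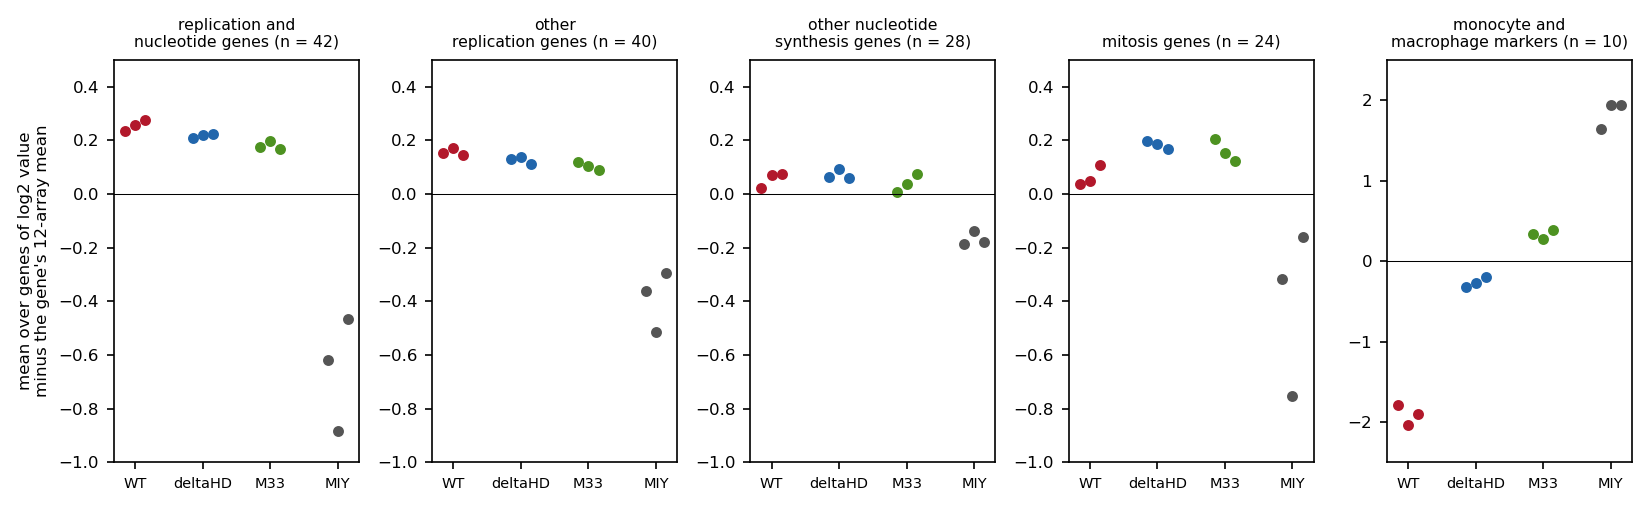
Mean over the genes of a list of log2(signal + 16) minus each gene's mean over the 12 arrays, per array, for the members, the other replication genes, the other nucleotide synthesis genes, the mitosis genes and the monocyte and macrophage markers (the last panel has a wider scale). For the members the construct arrays lie at 0.17 to 0.28 and the MIY-ctrl arrays at -0.88 to -0.47; for the monocyte markers the MIY-ctrl arrays lie highest.

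Of 20 regulators of the step into S phase, 9 were higher and 5 lower in MEIS1-WT cells, 8 higher and 5 lower in MEIS1-deltaHD cells, and 8 higher and 4 lower in M33-MEIS1 cells. The lower ones made up 25%, 25% and 20% of the list, near the 19.5%, 22.8% and 18.3% of all features. Beside the higher ones stand 13.4%, 13.8% and 12.4% of all features. Cyclin A2 (Ccna2) rose by 1.10 (MEIS1-WT), 1.17 (MEIS1-deltaHD) and 1.13 (M33-MEIS1), E2f7, a repressor of the E2F family, by 0.97 (MEIS1-WT), 0.80 (MEIS1-deltaHD) and 0.67 (M33-MEIS1) and Tfdp1, the usual partner of E2F factors, by 0.81 (MEIS1-WT), 0.83 (MEIS1-deltaHD) and 0.75 (M33-MEIS1). Kinase inhibitors Cdkn1a and Cdkn1b were lower, at -0.58 (MEIS1-WT), -1.04 (MEIS1-deltaHD) and -0.84 (M33-MEIS1) and at -0.66 (MEIS1-WT), -1.04 (MEIS1-deltaHD) and -0.73 (M33-MEIS1), as was Tfdp2, at -0.54 (MEIS1-WT), -0.91 (MEIS1-deltaHD) and -0.82 (M33-MEIS1).

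Genes of mitosis rose as well. Of 24 tested, 16 were higher in MEIS1-WT cells, 21 in MEIS1-deltaHD cells and 19 in M33-MEIS1 cells, with medians of 0.40, 0.53 and 0.56 in these groups, and 0 were lower in limma's test, also at an unadjusted p below 0.05. In the same comparisons 13.4%, 13.8% and 12.4% of all features were higher and 19.5%, 22.8% and 18.3% lower. Birc5, of the complex that guides chromosome segregation, rose by 1.19 (MEIS1-WT), 1.29 (MEIS1-deltaHD) and 1.24 (M33-MEIS1), Cdc25c, the phosphatase that starts mitosis, by 1.04 (MEIS1-WT), 1.12 (MEIS1-deltaHD) and 0.97 (M33-MEIS1) and Cdk1, the mitotic kinase, by 0.91 (MEIS1-WT), 0.92 (MEIS1-deltaHD) and 0.91 (M33-MEIS1). Prc1, which bundles the spindle midzone, differed by 0.09 (MEIS1-WT), 0.44 (MEIS1-deltaHD) and 0.51 (M33-MEIS1) and passed in MEIS1-deltaHD cells and in M33-MEIS1 cells. Whether the mitosis genes and the replication genes differed in their steps was not tested. The vector arrays were spread in this list in the same order, at -0.32, -0.75 and -0.16 for replicates 1, 2 and 3 as the mean log2 value over the list relative to the 12-array mean, beside -0.62, -0.88 and -0.47 for the members.

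Most members had several probe sets, and these were tested singly as well. The 89 that passed the filter gave 70 higher in MEIS1-WT cells, 69 in MEIS1-deltaHD cells and 66 in M33-MEIS1 cells, where 13.1%, 13.8% and 11.8% of all single probe sets did, and 0 were lower in limma's test, also at an unadjusted p below 0.05. A mean signal below 50 was found for 12 of the 19 that did not pass in MEIS1-WT cells, 14 of 20 in MEIS1-deltaHD cells and 12 of 23 in M33-MEIS1 cells. A further probe set with a mean signal of at least 50 was at hand 32 times, and in 16 cases its mean difference over the constructs was larger than that of the probe set used. The examples that follow were picked after their values were seen. For Rrm2 the further probe sets gave mean differences of 1.68 and 1.75, against 1.31 for the one used, and for Mcm7 2 of them gave 0.91 and 0.92, against 0.60. The largest gap was that of Orc1, whose second probe set had a mean difference of 0.40 at a mean signal of 74.9, against 1.30 for the one used, and passed in MEIS1-WT cells and in M33-MEIS1 cells but not in MEIS1-deltaHD cells. Probe sets also disagreed for E2f1, whose second one had a mean difference of 0.02 at a mean signal of 70.8, for Prim2, with 0.22 at a mean signal of 183, against 0.64, and for Orc2, with 0.19 and 0.23, against 0.62 for the one used. A second Prim1 probe set at a mean signal of 668 passed in none of the comparisons, at 0.37 in MEIS1-WT cells, 0.29 in MEIS1-deltaHD cells and -0.07 in M33-MEIS1 cells.

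**Figure D5:**
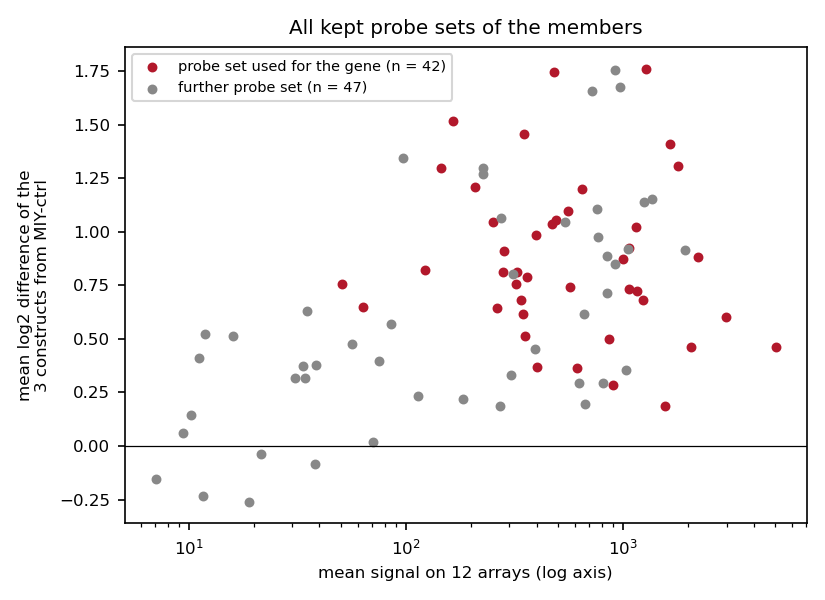
Mean log2 difference of the 3 constructs from MIY-ctrl against the mean signal over 12 arrays (log axis) for the 89 probe sets that passed the filter. Red points are the 42 probe sets used for the genes, all above 0, and grey points the 47 further ones, of which those at or below 0 have low signals.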

How the data were processed

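RNA from 12 cultures, 3 in each of 4 groups, was measured on Affymetrix arrays. The deposited values are linear probe set intensity signals, made with GCOS 1.2 per the submitters' processing notes, and each array had a trimmed mean of 100 in the deposited table (2% off each tail). The sources used here do not give the settings for background and summary. Probe sets above their array's 40th percentile on at least 3 of the 12 arrays were kept (31726 of 45101). Each gene was represented by its kept probe set with the highest mean, and probe sets without a single symbol stood alone, which left 19990 features. The values log2(signal + 16) were fitted with limma 3.58.1 in R 4.3.3 (all 4 groups, 8 residual degrees of freedom, eBayes with an intensity trend, Benjamini-Hochberg over all features, adjusted p below 0.05). For a single gene, an exact test of 3 against 3 arrays could not go below 0.1. Precision is low with only 3 experiments in each group. The p-values rest on a spread between experiments that was pooled over all 4 groups and moderated by eBayes. They do not rest on the spread of the compared groups alone. In the members this pooled value mixes unequal spreads, as the MIY-ctrl arrays varied more than the construct arrays.

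The genes and lists were chosen with earlier results of these data known. Array values are given for the 2 members of each role with the largest mean difference over the constructs, the 2 with the smallest, and those that passed between constructs. The other lists were described by their 3 highest and 3 lowest genes among those that passed, of which some are named. Alternatives were other constants, scalings, filters, probe set choices, samples in the fit and priors, a replicate block and leaving out each array. The fit was tested on simulated data, drawn with the same normal spread in every group for a feature. Of 100 features changed by 0.5 on the log2 scale in MEIS1-WT against MIY-ctrl, 32 were recovered. Of 100 changed by 1, 80 were recovered, and 6 unchanged features were called. The real vector arrays varied more in the members than the construct arrays, which this setting leaves out. It also changed far fewer features than the 6558 called in the real comparison, and drew them from all features, dim ones included. The shares recovered therefore do not give those of the real fit.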

Additional observations from a re-analysis of the deposited data

How the results depend on the processing

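Over 22 alternative settings, 12 of which left out 1 array each, the 127 gene-level results gave 2794 values, of which 2749 kept their direction and their side of the threshold, 40 lost the call, 4 gained it and 1 changed sign. The one that changed sign was Cdt1 in MEIS1-WT against MIY-ctrl, at -0.0175 without MIY-ctrl replicate 2 and up to 0.18 with any one array left out, never a call in these fits. The members higher against MIY-ctrl numbered 39 to 42 in MEIS1-WT cells, 38 to 42 in MEIS1-deltaHD cells and 34 to 42 in M33-MEIS1 cells, with 0 lower under every setting. The lowest counts came from averaging all kept probe sets of a gene, which ended 12 of the calls, in Mcm10, Cdc45, Prim1, Prim2, Pola2, E2f1, Chaf1b and Dnmt1. For MEIS1-deltaHD against MEIS1-WT, the 1 member lower (Ccne2) became 0 under median scaling and without the intensity trend, and 0 to 1 when arrays were left out. For M33-MEIS1 against MEIS1-WT, the 0 members lower became 1 (Prim1) with only the compared groups in the fit, and 0 to 1 when arrays were left out. The causes were not tested. The genes of the other replication, nucleotide, S phase and mitosis lists that are given with log2 differences kept their sign under median scaling and quantile normalization. The share of all calls that were higher against MIY-ctrl was 40.7% in MEIS1-WT cells, 37.8% in MEIS1-deltaHD cells and 40.3% in M33-MEIS1 cells, and became 67.5%, 70.7% and 69.9% under median scaling and 50.9%, 49.5% and 50.6% under quantile normalization. For MEIS1-deltaHD against MEIS1-WT it was 53.9% and became 69.0% under median scaling. Over all features, M33-MEIS1 against MEIS1-deltaHD gave 142 calls, 86 without the filter, 85 under median scaling, 31 without the trend and 58 to 198 with an array left out, and MEIS1-deltaHD against MEIS1-WT gave 1051, 610.0 without the trend and 696 without MEIS1-deltaHD replicate 1. With the replicate number as a block, 41 members were higher in MEIS1-WT cells, 42 in MEIS1-deltaHD cells and 40 in M33-MEIS1 cells, and no call changed. No effect shared by arrays of the same replicate number was seen, as the deviations of 18 same-numbered pairs correlated at -0.0375 to 0.0249. Such correlations cannot show whether the experiments were set up in pairs.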
